A study of Mus musculus with 96 samples.

Results

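The CXC and CX3C chemokines and their receptors measured here were 10 genes, taken by symbol from a list, out of 19505 named genes on the array. The ligands were Cxcl1, Cxcl2, Cxcl9, Cxcl10, Cxcl12, Cxcl14, Cxcl16 and Cx3cl1, and the receptors were Cxcr2 and Cxcr4. Each was read by 1 probe set, and all 10 were tested. Gene expression was measured in mouse brain on Clariom S Mouse arrays. Mice underwent MCAO, in which a filament closed the middle cerebral artery for 90 min and was then withdrawn for 30 min of reperfusion, or sham surgery, in which no filament was inserted. Brains were collected 2 h after onset from animals perfused with saline. The brain slice at bregma, where the paper places the infarct core, was divided into its right and left hemispheres. The right hemisphere (IP) was ischemic in MCAO mice, and the left (CL) was the opposite side. Each hemisphere of every mouse was hybridised to its own array.

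The 3 groups used were all male. Diabetic mice were BKS-Leprdb/db/JOrlRj animals aged 8 to 12 weeks, in which loss of leptin receptor function causes obesity and diabetes, with 8 MCAO and 4 sham mice. Old mice were C57Bl/6j animals aged 18 months, with 8 MCAO and 4 sham mice. Young male mice were C57Bl/6j animals aged 8 to 12 weeks, with 7 MCAO and 3 sham mice. Diabetic mice thus differ from the young males in strain as well as in the leptin receptor, and the young males were run in another set of experiments, so that strain, set and disease, or age and set, cannot be told apart. The 9 neuron markers measured stood at the 92nd percentile of genes or above and the 9 astrocyte markers at the 72nd or above in each group, as in brain. Each replicate was a separate mouse.

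Across the 68 arrays used, the median correlation of an array with the other arrays of its group was 0.962 to 0.983. Both arrays of young male MCAO mouse 3 and of young male sham mouse 1 stood apart, at 0.418 to 0.591, and were left out. The arrays labelled female were not used, because Fos, Npas4 and Ccl3, which were higher in IP after MCAO in the other groups, were lower in IP under their hemisphere labels. Ccl3 averaged −2.06 for IP minus CL in female MCAO mice, against 2.05 to 2.62 in the MCAO mice of the other 3 groups. In female sham mice it averaged −3.525, where the sham means of the other groups lay from −0.16 to 0.00. Values are log2 signals normalized within each group on its own, so levels are given within a group, and only the difference between the hemispheres of a mouse is set across groups. In whole tissue, fewer cells of a type and less RNA per cell cannot be told apart.

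Chemokines are small secreted or membrane-held proteins that guide leukocytes along gradients through receptors coupled to G proteins. CXC ligands with the ELR motif, such as Cxcl1 and Cxcl2, attract neutrophils through Cxcr2 and are induced by interleukin-1, tumor necrosis factor and NF-kappaB. Cxcl9 and Cxcl10 are induced by interferons and attract T cells through Cxcr3. Cxcl12 and its receptor Cxcr4 act in vessels, microglia and neuronal migration, and Cx3cl1 (fractalkine) is made by neurons and read by microglia through Cx3cr1.

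Cxcl1 and Cxcl2 lie near each other on chromosome 5 and were the members with the largest differences between MCAO and sham mice in IP. The 250 bases upstream of their annotated starts are shown because both hold the same run of letters, a site of the NF-kappaB type. The Cxcl1 stretch is chr5:90890995-90891244 on the plus strand and the Cxcl2 stretch chr5:90903649-90903898 on the plus strand, in RefSeq's annotation of GRCm38.p6. Capitals mark matches to the NF-kappaB motif.
Cxcl1: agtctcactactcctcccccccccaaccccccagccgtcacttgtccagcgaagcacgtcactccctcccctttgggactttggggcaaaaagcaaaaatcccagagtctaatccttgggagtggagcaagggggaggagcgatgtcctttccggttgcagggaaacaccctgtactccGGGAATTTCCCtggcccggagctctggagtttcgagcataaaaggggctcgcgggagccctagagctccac
Cxcl2: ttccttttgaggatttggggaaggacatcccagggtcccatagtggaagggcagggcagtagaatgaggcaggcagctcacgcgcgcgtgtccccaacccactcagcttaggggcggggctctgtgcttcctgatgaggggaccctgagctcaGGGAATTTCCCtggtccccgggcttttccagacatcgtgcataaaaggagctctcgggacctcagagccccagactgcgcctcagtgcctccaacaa
The run GGGAATTTCC, chosen because both promoters hold it, began 71 bases before the start in Cxcl1 and 97 bases before it in Cxcl2, and in each it overlapped a second NF-kappaB match shifted by 1 base. This exact 10-base run, searched on both strands, was present in 28 of 32851 RefSeq promoters (0.085%), and 2 of the 10 members held it. The wider NF-kappaB motif, of which it is one form, was present in 7.25% of promoters and in 3 of the 10 members, the third being Cxcl10. Cxcl16 had no promoter among these sequences and was not searched. A match is a description of the letters and does not show binding.

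Most members were dim. In each group 3 of the 10, Cxcl12, Cxcl14 and Cx3cl1, lay above the median gene, and the other 7 lay below it. Cx3cl1 stood at the 97th to 99th percentile of genes, Cxcl14 at the 86th to 89th and Cxcl12 at the 69th to 71st. Cxcl1 stood at the 33rd to 35th percentile and Cxcl2 at the 17th to 28th, so that these genes were read from weak signals, where an array understates a fold.

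Cxcl2, a neutrophil attractant, was higher in IP than CL in 18 of 23 MCAO mice and in 4 of 11 sham mice. In diabetic MCAO mice IP minus CL of Cxcl2 had a lowest value of −0.03, a median of 0.72 and a highest value of 1.69 log2, with a mean of 0.79 ± 0.56 (SD, n = 8), and it was −0.21, −0.29, −0.43 and 0.16 in the 4 diabetic sham mice. Of this group, 7 MCAO mice were above 0, and the lowest was below 1 sham mouse. The old MCAO mice had a lowest value of −0.35, a median of 0.63 and a highest value of 2.00, with a mean of 0.70 ± 0.80 (SD, n = 8), and it was 0.43, −0.18, −0.10 and 0.90 in old sham mice. The old MCAO mice spread widely and overlapped with the shams. In young male MCAO mice it had a lowest value of −0.56, a median of 0.08 and a highest value of 1.09, with a mean of 0.20 ± 0.51 (SD, n = 7), and it was 0.20, −0.26 and −0.82 in young male sham mice. Here too the surgeries overlapped.

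Cxcl2 rose in IP of diabetic MCAO mice by 0.79 ± 0.16 log2 (SE), 1.73-fold, with a Benjamini-Hochberg adjusted p of 0.0258 in limma. In this comparison 3 of the 10 members were called at an adjusted p under 0.25, the study's threshold, against 22.2% of all genes called in either direction and 10.7% called higher. In old MCAO mice Cxcl2 differed by 0.70 ± 0.23 (SE, 1.63-fold), which did not pass (adjusted p = 0.479). No member was called there, where 0.041% of genes were. In young male MCAO mice the difference was 0.20 ± 0.16 (SE, adjusted p = 0.888), and no member was called among 0.472% of genes. At an unadjusted p under 0.05, 1 member each would pass, Cxcl2 in old and Cxcl16 in young male mice. So would 1386 of the 19505 genes in old and 1396 in young male mice. A p that misses the threshold does not show that a gene was unchanged. At an adjusted p under 0.05, 1 member (Cxcl2) was called in diabetic MCAO mice, against 2.29% of genes. In diabetic mice MCAO minus sham of IP minus CL was 0.98 ± 0.27 for Cxcl2 (SE) and missed the threshold (adjusted p = 0.342). It missed it too for Cxcl1 (1.06 ± 0.31, SE, adjusted p = 0.351) and Cxcr2 (0.41 ± 0.34, SE, adjusted p = 0.703). None of the 19505 genes was called in that comparison.

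Averaged over the 3 groups, Cxcl2 rose in IP by 0.56 ± 0.12 (SE, 1.48-fold, adjusted p = 0.00392). The median over the members was 0.12 log2, against 0.00 over all genes, and 3 of the 10 members were called, all higher, against 14.3% of genes called in either direction and 6.11% called higher. At an adjusted p under 0.05, Cxcl2 alone was called, against 3.49% of genes. Leaving out any 1 of the 34 mice kept the Cxcl2 mean between 0.50 and 0.62, with adjusted p from 0.00134 to 0.00952. In sham mice IP minus CL of Cxcl2 averaged −0.07 ± 0.17 (SE, adjusted p near 1), and no member was called, as none of the 19505 genes was; 846 genes and 0 members had an unadjusted p under 0.05 there. The difference between the surgeries, MCAO minus sham of IP minus CL, was 0.64 ± 0.21 (SE) for Cxcl2 and missed the threshold with an adjusted p of 0.276. No member was called in that comparison, in which 1.28% of genes were. An unadjusted p under 0.05 was found for 2 members, Cxcl1 and Cxcl2, and for 1789 of the 19505 genes.

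Levels within 1 hemisphere were then compared between the surgeries. In diabetic mice the IP level of Cxcl2 ran from 4.29 to 5.45 log2, with a median of 4.76, in MCAO mice, and was 3.98, 3.11, 3.48 and 3.96 in sham mice. Every diabetic MCAO mouse was above every sham mouse, and the same held for Cxcl1, so 2 of the 10 members did not overlap, against 0.974% of all genes. In young male mice the IP level of Cxcl2 ran from 2.78 to 3.54, with a median of 2.99, in MCAO mice, and was 2.52, 2.56 and 2.52 in sham mice. Again no MCAO mouse overlapped with the shams, and Cxcl2 was the only 1 of the 10 members for which this held, against 1.48% of genes. In old mice the IP level of Cxcl2 ran from 3.21 to 4.73, with a median of 4.19, in MCAO mice and was 3.41, 3.21, 3.56 and 4.09 in sham mice, and 5 of 8 MCAO mice were above all 4 shams.

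**Figure D1:**
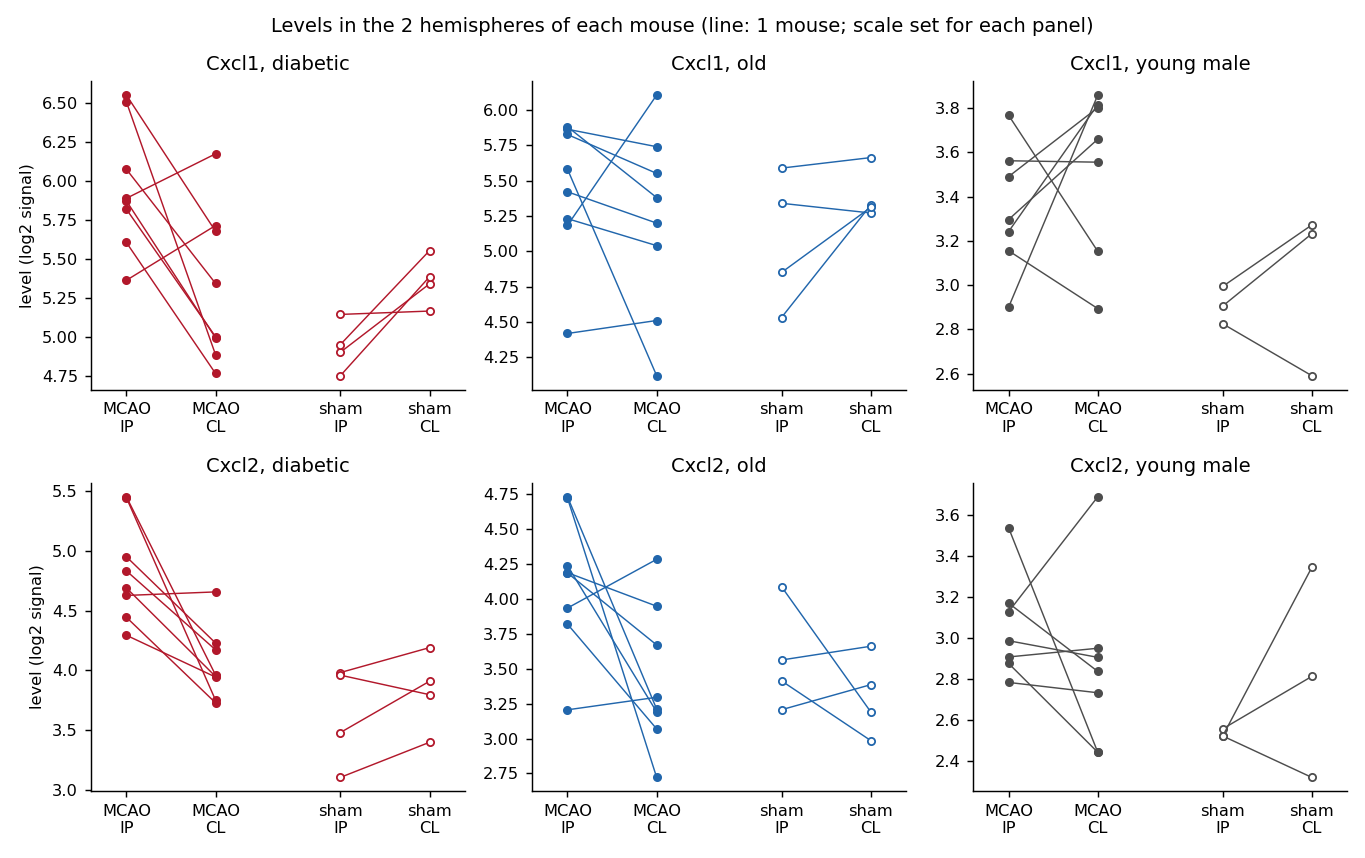
Levels (log2 signal) of Cxcl1 and Cxcl2 in the IP and CL hemisphere of each mouse in diabetic, old and young male mice; a line joins the hemispheres of 1 mouse, filled points are MCAO and open points sham, and each panel has its own scale. The IP points of Cxcl2 lie above all sham IP points in 8 of 8 diabetic, 5 of 8 old and 7 of 7 young male MCAO mice.

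Over the 3 groups, Cxcl2 in IP was higher in MCAO than in sham mice by 0.76 ± 0.14 (SE, 1.70-fold, adjusted p = 0.00134 in limma), and 20 of 23 MCAO mice were above every sham mouse of their group. In IP 2 of the 10 members were called, Cxcl2 and Cxcl1, against 4.77% of genes in either direction and 2.48% higher, and both stayed called at an adjusted p under 0.05, against 1.12% of genes. In CL the same comparison gave 0.12 ± 0.14 for Cxcl2 (SE, adjusted p = 0.999), and no member was called in CL, where 0.0103% of genes were and no member had an unadjusted p under 0.05. Of all 19505 genes, 948 had an unadjusted p under 0.05 in CL.

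Cxcl1, also an ELR ligand for Cxcr2, was higher in IP in 15 of 23 MCAO and 2 of 11 sham mice, and 11 MCAO mice were above all shams. In diabetic MCAO mice IP minus CL of Cxcl1 had a lowest value of −0.35, a median of 0.83 and a highest value of 1.62, with a mean of 0.64 ± 0.65 (SD, n = 8), and it was −0.02, −0.44, −0.63 and −0.60 in diabetic sham mice. It was above 0 in 6 MCAO mice, below 0 in mice 3 and 6, and above 0 in no sham mouse. Old mice with MCAO had a lowest value of −0.92, a median of 0.21 and a highest value of 1.46, with a mean of 0.22 ± 0.66 (SD, n = 8), and it was −0.07, −0.79, 0.07 and −0.46 in old sham mice. Mouse 8 was the lowest old MCAO mouse and lay below all 4 shams. In young male MCAO mice it had a lowest value of −0.96, a median of −0.31 and a highest value of 0.62, with a mean of −0.19 ± 0.53 (SD, n = 7), and it was 0.23, −0.28 and −0.33 in young male sham mice. The young male MCAO mice lay on both sides of their shams.

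Cxcl1 rose in IP of diabetic MCAO mice by 0.64 ± 0.18 (SE, 1.56-fold, adjusted p = 0.0735). It differed by 0.22 ± 0.19 in old mice (SE, adjusted p = 0.865) and by −0.19 ± 0.16 in young male mice (SE, adjusted p = 0.889), neither of which passed. Over the 3 groups it averaged 0.22 ± 0.11 in MCAO mice (SE, adjusted p = 0.301) and −0.29 ± 0.16 in sham mice (SE, adjusted p near 1), and the MCAO value passed without diabetic MCAO mouse 3 or 6, old MCAO mouse 8 or young male MCAO mouse 1 (0.27 to 0.28, adjusted p from 0.124 to 0.208). With diabetic and old mice only, which were run in 1 set of experiments, Cxcl1 averaged 0.43 in MCAO mice and passed (adjusted p = 0.0766). MCAO minus sham of IP minus CL, averaged over all 3 groups, was 0.51 ± 0.20 for Cxcl1 (SE, adjusted p = 0.392). For diabetic and old mice only it was 0.80 and passed narrowly (limma, adjusted p = 0.223). The difference between diabetic and young male MCAO mice was 0.83 ± 0.27 (SE) and was called at an adjusted p of 0.138, the 1 member called, against 9.35% of genes in either direction and 4.19% higher. Cxcl1 differed by 0.42 ± 0.26 between diabetic and old mice (SE, adjusted p = 0.509), where no member was called against 5.15% of genes, and by 0.41 ± 0.27 between old and young male mice (SE, adjusted p near 1), where no gene was called and 720 genes, but no member, had an unadjusted p under 0.05. At an adjusted p under 0.05 no member was called for diabetic minus young male, against 0.62% of genes. For Cxcl2 the difference between diabetic and young male mice was 0.59 ± 0.29 (SE, adjusted p = 0.335).

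In IP of diabetic mice Cxcl1 ran from 5.36 to 6.55 log2, with a median of 5.88, in MCAO mice, and was 5.14, 4.90, 4.75 and 4.95 in sham mice. The MCAO mice were all higher. In CL of diabetic mice it averaged 5.32 ± 0.49 in MCAO mice (SD, n = 8) and 5.36 ± 0.16 in sham mice (SD, n = 4). In young male mice Cxcl1 averaged 3.34 ± 0.29 in IP of MCAO mice (SD, n = 7) and 2.91 ± 0.08 in IP of sham mice (SD, n = 3), while in CL it averaged 3.53 ± 0.37 in MCAO and 3.03 ± 0.38 in sham mice (SD). Both hemispheres of young male MCAO mice thus lay above those of their shams, by 0.44 in IP and 0.50 in CL, which the IP minus CL difference does not show; neither was tested within the group. Over the 3 groups Cxcl1 in IP was higher in MCAO than in sham mice by 0.60 ± 0.14 (SE, 1.52-fold, adjusted p = 0.0143), with 17 of 23 MCAO mice above every sham mouse of their group. With the left-out young male mice kept, the value was 0.54 and no longer passed (adjusted p = 0.291). In CL it differed by 0.09 ± 0.16 (SE, adjusted p = 0.999).

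Cxcr2, the receptor of Cxcl1 and Cxcl2 on neutrophils, was called narrowly in diabetic MCAO mice and in no other comparison. In diabetic MCAO mice IP minus CL had a lowest value of −0.43, a median of 0.61 and a highest value of 1.07, with a mean of 0.43 ± 0.54 (SD, n = 8), and in diabetic sham mice it was 0.96, 0.37, −0.48 and −0.79. The shams spanned nearly the whole MCAO range. The difference of 0.43 ± 0.20 in MCAO mice passed narrowly (SE, adjusted p = 0.237), and the call was lost when MCAO mouse 1, 2, 3, 4 or 7 or sham mouse 2 was left out, with values down to 0.34 and adjusted p up to 0.415. With all mice kept it was lost under the methods' filter on the standard deviation (adjusted p = 0.310) and with limma's trend and robust options (adjusted p = 0.259). In old MCAO mice Cxcr2 averaged −0.18 ± 0.69 (SD, n = 8), higher in IP in 1 of 8 mice, and in young male MCAO mice −0.16 ± 0.71 (SD, n = 7). The difference between diabetic and old mice, 0.60 ± 0.31, did not pass (SE, adjusted p = 0.417). MCAO minus sham in IP, averaged over the 3 groups, was 0.01 ± 0.16 for Cxcr2 (SE, adjusted p = 0.988). The groups went apart in this, with 0.52 in diabetic, −0.41 in old and −0.09 in young male mice. These group values were not tested.

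Markers of neutrophils, red blood cells and neurons also differed between IP and CL in diabetic MCAO mice. Whether they varied with the members from mouse to mouse was not tested. The mean of 13 measured markers was higher in IP in 8 of 8 diabetic MCAO mice, with IP minus CL from 0.16 to 0.78 log2, and 2 of 4 diabetic shams, from −0.16 to 0.57. It was higher in 4 of 8 old MCAO mice (−0.48 to 0.29) and 4 of 4 old shams (0.03 to 0.47), and in 5 of 7 young male MCAO mice (−0.11 to 0.17) and 1 of 3 shams (−0.05 to 0.33). The mean marker level in diabetic MCAO mice was 4.62 to 5.18 in IP and 4.40 to 4.61 in CL. Of the 13 markers, 5 rose in diabetic MCAO mice, among them S100a8 and S100a9, which form calprotectin, by 1.51 and 1.41 (adjusted p = 0.0342 and 0.0103); no old and 1 young male marker, S100a8, was called. No marker was at 0, as arrays give none, and the median marker stood at the 23rd to 25th percentile of genes. The mean of both measured red blood cell markers, Alas2 and Slc4a1, was higher in IP in 8 of 8 diabetic MCAO mice, with a mean IP minus CL of 0.44 (0.00 to 0.98), against 0.44 for the neutrophil markers in the same mice, and it averaged −0.03 in diabetic shams (−0.52 to 0.28). It averaged −0.10 in old and 0.02 in young male MCAO mice. Alas2, an enzyme of heme synthesis in red cells, rose by 0.56 ± 0.15 in diabetic MCAO mice (SE, adjusted p = 0.0680). The mean of 9 neuron markers was lower in IP in 7 of 8 diabetic MCAO mice, with a mean of −0.15 (−0.37 to 0.05), and averaged 0.03 in diabetic shams (0.01 to 0.07). It averaged 0.00 in old and 0.02 in young male MCAO mice. Of the 9 neuron markers, 4 fell in diabetic MCAO mice and none in old or young male ones. Over all 19505 genes, 10.7% were called higher and 2227 genes lower in diabetic MCAO mice. In old and young male ones 0.041% and 0.472% of genes were called in either direction. Of the markers of astrocytes and of choroid plexus and meninges, 0 of 9 and 2 of 11 rose in diabetic MCAO mice and 1 and 0 fell. The part of any of these cells in Cxcl1, Cxcl2 and Cxcr2 was not tested.

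**Figure D2:**
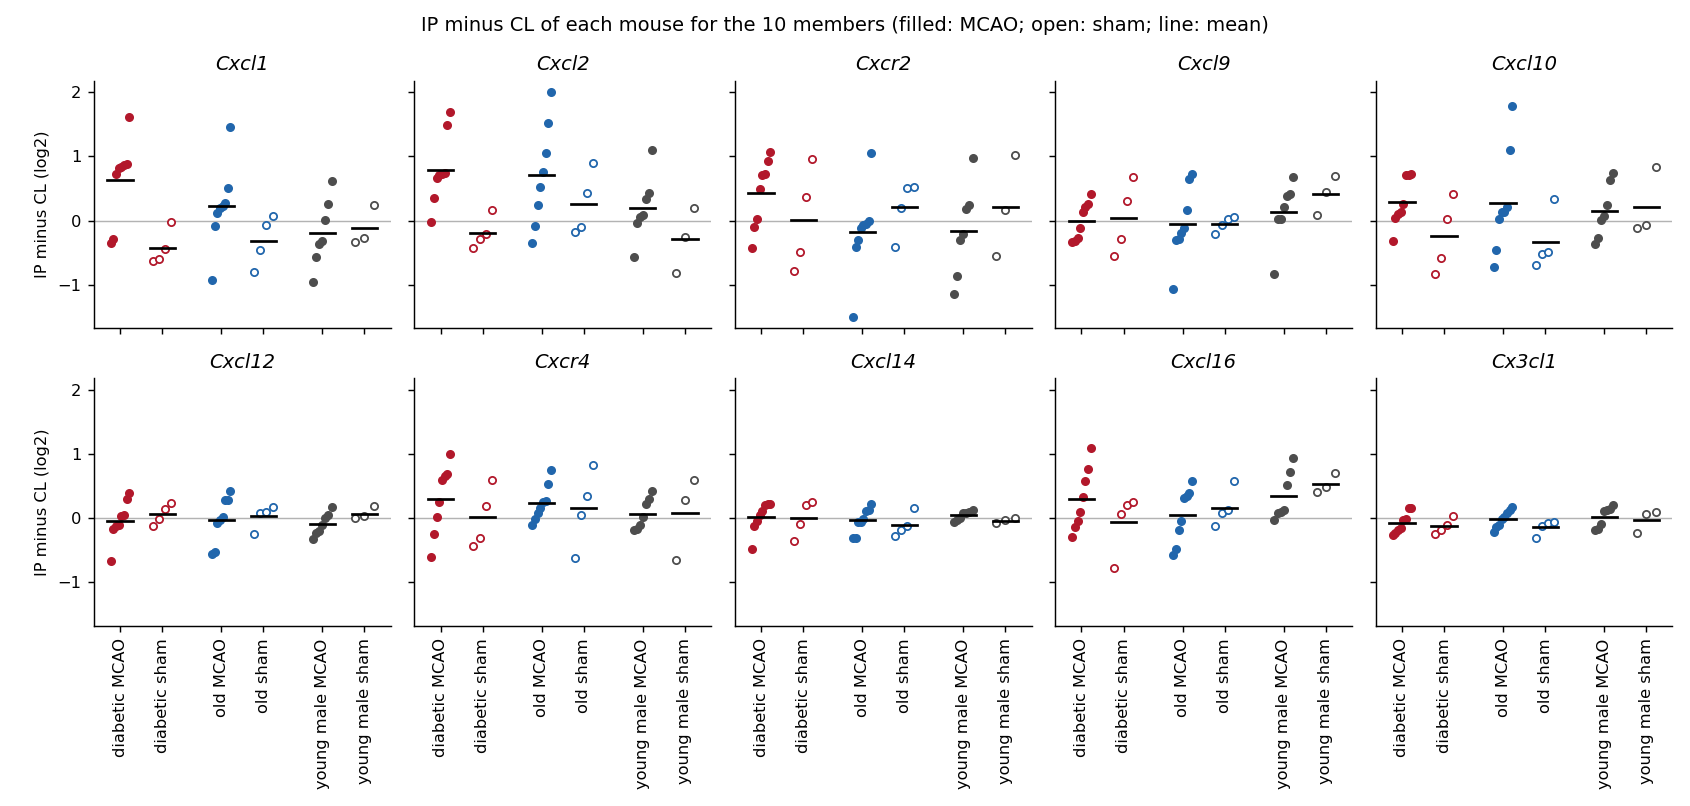
IP minus CL (log2) of every mouse for the 10 members in diabetic, old and young male mice, with MCAO (filled) left of sham (open) and a line at the mean. Cxcl2 is above 0 in 18 of 23 MCAO and 4 of 11 sham mice, whereas Cxcl14 and Cx3cl1 stay within 0.48 of 0 in all MCAO mice.

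Cxcl10, which draws T cells through Cxcr3, was higher in IP in 18 of 23 MCAO and 4 of 11 sham mice, but its values did not pass the test. Its upstream bases are shown because they hold matches to all 3 motifs searched. The stretch is chr5:92348890-92349139 on the minus strand of GRCm38.p6, written 5′ to 3′ from RefSeq. Capitals mark, in order, GAAANNGAAA (interferon-stimulated response element, ISRE), an NF-kappaB match, an overlapping pair of NF-kappaB matches, and TGANTCA (AP-1).
Cxcl10: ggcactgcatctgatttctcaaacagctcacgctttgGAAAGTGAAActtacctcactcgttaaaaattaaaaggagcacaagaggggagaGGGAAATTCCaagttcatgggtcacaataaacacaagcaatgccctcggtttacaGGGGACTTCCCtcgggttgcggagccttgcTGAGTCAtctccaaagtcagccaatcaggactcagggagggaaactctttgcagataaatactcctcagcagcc
The ISRE letters began 213 bases before the start, the NF-kappaB matches at 159 and 104, and the AP-1 letters at 74. On both strands GAAANNGAAA was present in 2.98% and TGANTCA in 6.75% of the 32851 promoters. Of the other members, Cxcl14 held an ISRE-type match 172 bases before its start, and Cxcl9, Cxcl12, Cxcr2, Cxcr4 and Cx3cl1 held none of these letters in their windows.

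**Figure D3:**
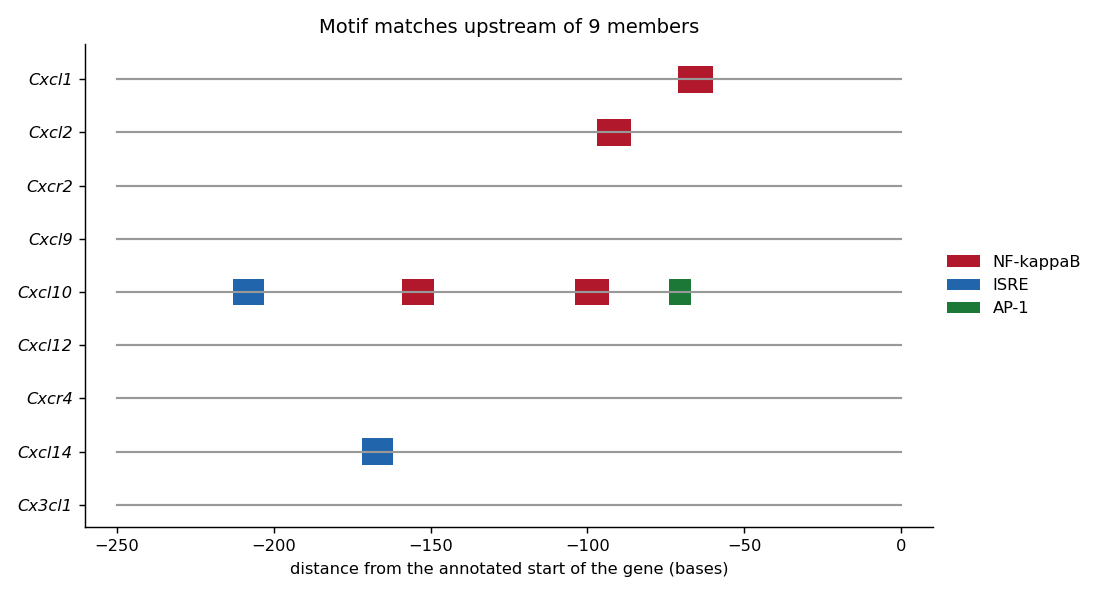
Matches to the NF-kappaB, ISRE and AP-1 motifs in the 250 bases upstream of the annotated start of 9 members, with the distance from the start in bases on the x axis and 1 line for each gene. Cxcl1 and Cxcl2 hold an NF-kappaB match starting 71 and 97 bases before the start, and Cxcl10 holds all 3 motifs.

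In diabetic MCAO mice IP minus CL of Cxcl10 had a lowest value of −0.31, a median of 0.20 and a highest value of 0.72, with a mean of 0.30 ± 0.38 (SD, n = 8), and it was −0.58, 0.02, −0.83 and 0.41 in diabetic sham mice. In old MCAO mice it ran from −0.72 to 1.79 with a median of 0.13, and it was 0.34, −0.52, −0.69 and −0.49 in old sham mice. In young male MCAO mice it ran from −0.36 to 0.74 with a median of 0.07, and it was 0.83, −0.07 and −0.12 in young male sham mice. The surgeries overlapped in every group, and old MCAO mice 2 and 3 gave the only values above 1. Averaged over the groups, the difference was 0.24 ± 0.11 (SE, adjusted p = 0.261), just outside the threshold, and MCAO minus sham in IP was 0.43 ± 0.17 (SE, adjusted p = 0.296). Leaving out old MCAO mouse 8 brought both within it, at 0.29 (adjusted p = 0.125) and 0.50 (adjusted p = 0.127), and leaving out diabetic MCAO mouse 6, old MCAO mouse 5 or young male MCAO mouse 2 or 6 brought the IP minus CL value within it (0.26 to 0.28). Cxcl9, induced mainly by interferon gamma, averaged 0.02 ± 0.09 over the MCAO groups (SE, adjusted p = 0.929), with 13 of 23 MCAO and 7 of 11 sham mice higher in IP. Of 14 interferon-induced genes measured, 1 rose and 2 fell in IP of MCAO mice over the 3 groups, with a median of 0.00. The share over all genes was 6.11% called higher and 14.3% called in either direction. Irf1, a transcription factor, was higher by 0.25 ± 0.09 (SE, adjusted p = 0.111), and Usp18 and Stat2, of the type I interferon response, were lower, at −0.27 and −0.14 (adjusted p = 0.19 and 0.194).

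Cxcr4, a receptor on leukocytes, microglia and endothelium, was called in IP over the 3 groups, and its ligand Cxcl12 was not. IP minus CL of Cxcr4 in diabetic MCAO mice had a lowest value of −0.60, a median of 0.42 and a highest value of 1.00, and it was 0.60, −0.31, −0.43 and 0.19 in diabetic sham mice. In old MCAO mice it ran from −0.11 to 0.74 with a median of 0.20, and it was −0.62, 0.82, 0.05 and 0.35 in old sham mice. In young male MCAO mice it ran from −0.18 to 0.41 with a median of 0.02, and it was 0.59, −0.65 and 0.29 in young male sham mice. The sham mice spanned a wider range than the MCAO mice in the old and young male groups. The mean over the groups was 0.20 ± 0.09 (SE, 1.15-fold, adjusted p = 0.243), and 16 of 23 MCAO and 7 of 11 sham mice were higher in IP. The call was lost on leaving out any of 21 of the 34 mice, 1 at a time (0.17 to 0.21, adjusted p up to 0.362). It was also lost with the left-out young male mice kept (0.22, adjusted p = 0.255). MCAO minus sham of IP minus CL was 0.12 ± 0.16 (SE, adjusted p = 0.867). Cxcl12, held mainly by endothelium and meninges, averaged −0.05 ± 0.06 over the MCAO groups (SE, adjusted p = 0.699), and its mice ran from −0.66 to 0.42 after MCAO and from −0.24 to 0.24 after sham surgery.

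Over the 3 groups, 6.11% of all genes were called higher in IP of MCAO mice and 14.3% in either direction. Of 10 measured genes for ectodomain shedding and Cxcr4 signalling, 3 rose there and none fell, with a median of 0.04. All 3 are RGS proteins, which shorten G protein signals: Rgs2 by 1.21 ± 0.13, Rgs1 by 0.63 ± 0.13 and Rgs16 by 0.17 ± 0.05 (SE; adjusted p = 3.21e-07, 0.00348 and 0.0518). Rgs2 and Rgs16 are not specific to Cxcr4, and whether they act on it here was not tested.

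Cxcl16, a membrane-bound ligand for Cxcr6 that is shed by Adam10, was the third member called over the 3 MCAO groups, with a mean in sham mice of nearly the same size. IP minus CL of Cxcl16 in diabetic MCAO mice had a lowest value of −0.30, a median of 0.21 and a highest value of 1.10, and it was 0.07, 0.25, 0.20 and −0.78 in diabetic sham mice. In old MCAO mice it ran from −0.58 to 0.57 with a median of 0.14, and it was 0.57, −0.13, 0.12 and 0.08 in old sham mice. In young male MCAO mice it ran from −0.03 to 0.93 with a median of 0.13, and it was 0.48, 0.70 and 0.41 in young male sham mice. All 3 young male shams lay above the MCAO median, and their mean was 0.53 ± 0.18 (SE, adjusted p = 0.83). Over the groups Cxcl16 rose by 0.23 ± 0.08 in MCAO mice (SE, 1.17-fold, adjusted p = 0.131), and sham mice gave 0.21 ± 0.12 (SE, adjusted p near 1), so that MCAO minus sham was 0.02 ± 0.15 (SE, adjusted p = 0.979). It was higher in IP in 15 of 23 MCAO and 9 of 11 sham mice. With diabetic and old mice only, the MCAO value was 0.17 and did not pass (adjusted p = 0.402). Adam10 and Adam17, the shedding proteases, were not called in the same fit, at −0.03 ± 0.04 and 0.09 ± 0.06 (SE).

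Cx3cl1 and Cxcl14, the brightest members, were not called in any comparison. Cx3cl1 averaged −0.02 ± 0.04 for IP minus CL over the MCAO groups (SE, adjusted p = 0.828) and −0.10 ± 0.05 in sham mice (SE), and its MCAO mice ran from −0.26 to 0.20. Cxcl14, an abundant chemokine of interneurons, averaged 0.01 ± 0.04 over the MCAO groups (SE, adjusted p = 0.962), with MCAO mice from −0.48 to 0.22. Cx3cr1, the microglial receptor of Cx3cl1, was higher in IP by 0.16 ± 0.05 in MCAO mice (SE, adjusted p = 0.102) and by 0.21 ± 0.08 in sham mice (SE, adjusted p near 1). The mean of 9 microglial markers differed between the hemispheres by −0.74 to 0.25 in single MCAO mice, and none of them was called over the 3 groups. In diabetic MCAO mice 2 of the 9 fell in IP, with a median over the 9 of −0.11: Aif1, which encodes the microglial protein Iba1, by 0.46 ± 0.18 (SE, adjusted p = 0.176), and Fcrls by 0.29 ± 0.11 (SE, adjusted p = 0.163). Over all 19505 genes, 2227 were called lower in diabetic MCAO mice. In old and young male ones 0.041% and 0.472% of genes were called in either direction. IP minus CL of Aif1 was also lower in diabetic than in old MCAO mice, by −0.59 ± 0.22 (SE, adjusted p = 0.232), and that of Fcrls was lower in diabetic than in young male ones, by −0.37 ± 0.14 (SE, adjusted p = 0.194), while no microglial marker was called in old or young male MCAO mice on their own.

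**Figure D4:**
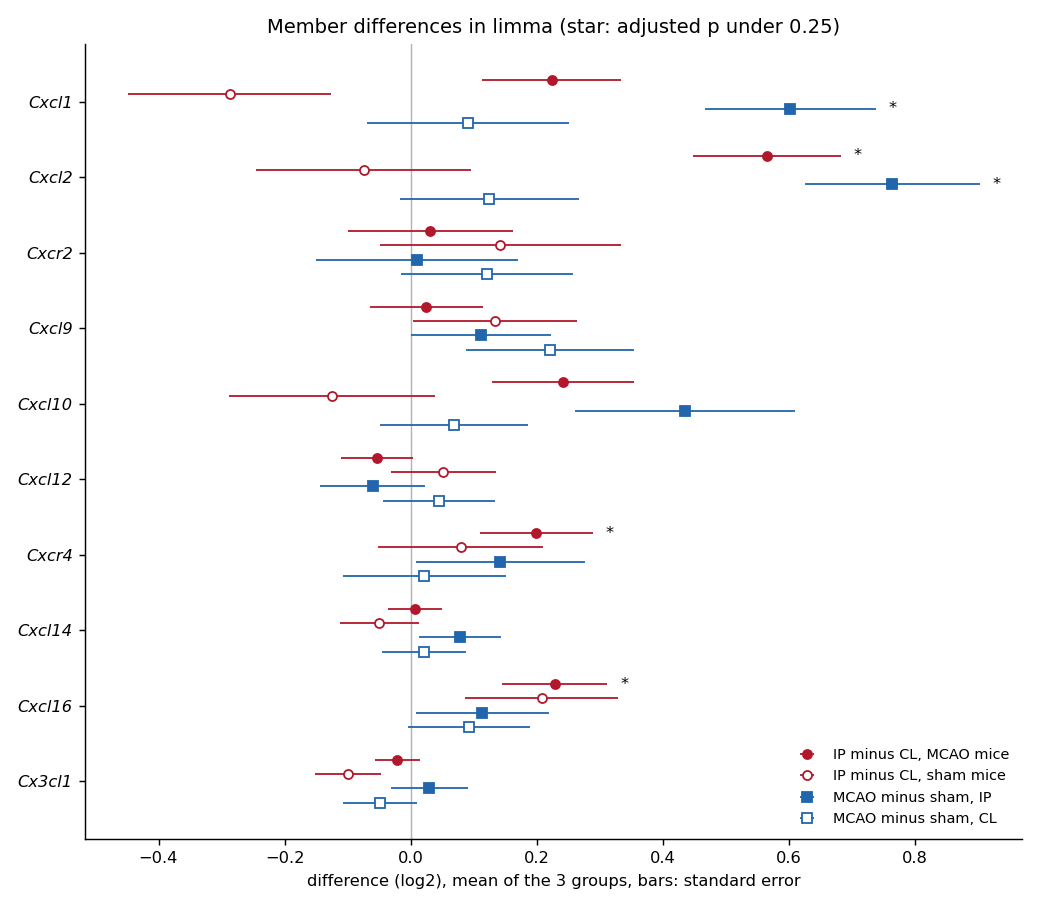
Differences (log2, mean of the 3 groups, bars show the standard error) for the 10 members: IP minus CL in MCAO and sham mice, and MCAO minus sham in IP and CL; a star marks an adjusted p under 0.25 in limma. Cxcl2 lies at 0.56 for IP minus CL in MCAO mice and at 0.76 for MCAO minus sham in IP, and Cxcl16 lies near 0.2 for IP minus CL in both surgeries.

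Among 9 other CXC, CX3C and XC ligands, none was called over the 3 MCAO groups and 2 rose in diabetic MCAO mice, where 10.7% of all genes were called higher and 22.2% in either direction. These were the platelet chemokines Ppbp, by 0.95 ± 0.35 (SE, adjusted p = 0.145), and Pf4, by 0.38 ± 0.15 (SE, adjusted p = 0.168). Ppbp differed between diabetic and old MCAO mice by 1.41 ± 0.38 (SE, adjusted p = 0.148). The other ELR ligands were not called: Cxcl5 gave 0.22 ± 0.12 over the 3 groups (SE, adjusted p = 0.352), and Cxcl3 was not called in any comparison. Of 10 other receptors, Cx3cr1 rose and 2 atypical receptors fell in IP over the 3 groups, where 14.3% of all genes were called in either direction. Ackr1, a chemokine-binding receptor of venules, fell by 0.13 ± 0.05 (SE, adjusted p = 0.143), and Ackr3, which scavenges Cxcl12, fell by 0.18 ± 0.07 (SE, adjusted p = 0.200). In diabetic MCAO mice Ackr3 fell by 0.48 ± 0.13 (SE, adjusted p = 0.0658), and it differed by −0.48 ± 0.18 between diabetic and young male mice (SE, adjusted p = 0.191). Cxcr1 differed by 0.97 ± 0.28 between diabetic and old MCAO mice (SE, adjusted p = 0.156).

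Of 17 measured genes of interleukin-1, tumor necrosis factor and NF-kappaB signalling, which induce Cxcl1 and Cxcl2, 7 rose and 1 fell in IP of MCAO mice over the 3 groups, with a median of 0.16. Of all genes, 6.11% were called higher in that comparison and 14.3% in either direction. Nfkbiz, a nuclear NF-kappaB cofactor, rose by 0.52 ± 0.07 (SE, adjusted p = 1.72e-05) and Il1a by 1.01 ± 0.20 (SE, adjusted p = 0.00326). Il1r1, the interleukin-1 receptor, fell by 0.38 ± 0.08 (SE, adjusted p = 0.00381). In diabetic mice 5 of the 17 rose, against 10.7% of all genes called higher and 22.2% in either direction. In old and young male mice none was called, where 0.041% and 0.472% of all genes were. The difference in Il1a was 0.97 ± 0.27 in diabetic (SE, adjusted p = 0.0737), 1.78 ± 0.44 in old (SE, adjusted p = 0.361) and 0.28 ± 0.17 in young male MCAO mice (SE, adjusted p = 0.815), so that the old mice, without a call, had the highest value of the 3 groups. Diabetic minus old was −0.81 ± 0.49 (SE, adjusted p = 0.488). Of 9 endothelial markers, 2 rose over the 3 groups, where 6.11% of all genes were called higher. The mean of the 9 was higher in IP in 7 of 8 diabetic, 6 of 8 old and 4 of 7 young male MCAO mice. The part of endothelium in the members' values was not tested.

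Over the 23 MCAO mice, with group means subtracted, IP minus CL of Cxcl1 and Cxcl2 had a Pearson r of 0.52 (permutation p = 0.0171, adjusted over 3 pairs 0.0256) and a Spearman rho of 0.44 (permutation p = 0.0421, adjusted 0.0631). Cxcl12 and Cxcr4 had an r of 0.57 (permutation p = 0.00838, adjusted 0.0251) and a rho of 0.46 (permutation p = 0.0406, adjusted 0.0631), and Cxcl9 and Cxcl10 an r of 0.09 (permutation p = 0.741) and a rho of 0.03 (permutation p = 0.913). Without the 2 mice farthest from the median of the first gene, r was 0.30 for Cxcl1 and Cxcl2 and 0.34 for Cxcl12 and Cxcr4. Leaving out the extremes of a gene narrows its range, which by itself lowers r. The drop therefore cannot show whether the relations rest on those mice. Within groups r of Cxcl1 and Cxcl2 was 0.37 in diabetic, 0.70 in old and 0.39 in young male mice, and r of Cxcl12 and Cxcr4 was 0.72, 0.44 and 0.49 in the same order. Members read from the same arrays share the array's quality, and this was not tested. The genes most like Cxcl2 over these 23 mice, among all named genes, were Capn13, Vwa1 and Apbb1ip (r = 0.75, 0.73 and 0.69). Those most like Cxcl16 were Sparc, Plekhh1 and Magel2 (r = 0.82, 0.78 and 0.78), and those most like Cxcr4 were Krt32, Tmem11 and Smlr1 (r = 0.86, 0.77 and 0.76). These were picked as the highest of the correlations with all 19505 genes and have no test.

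**Figure D5:**
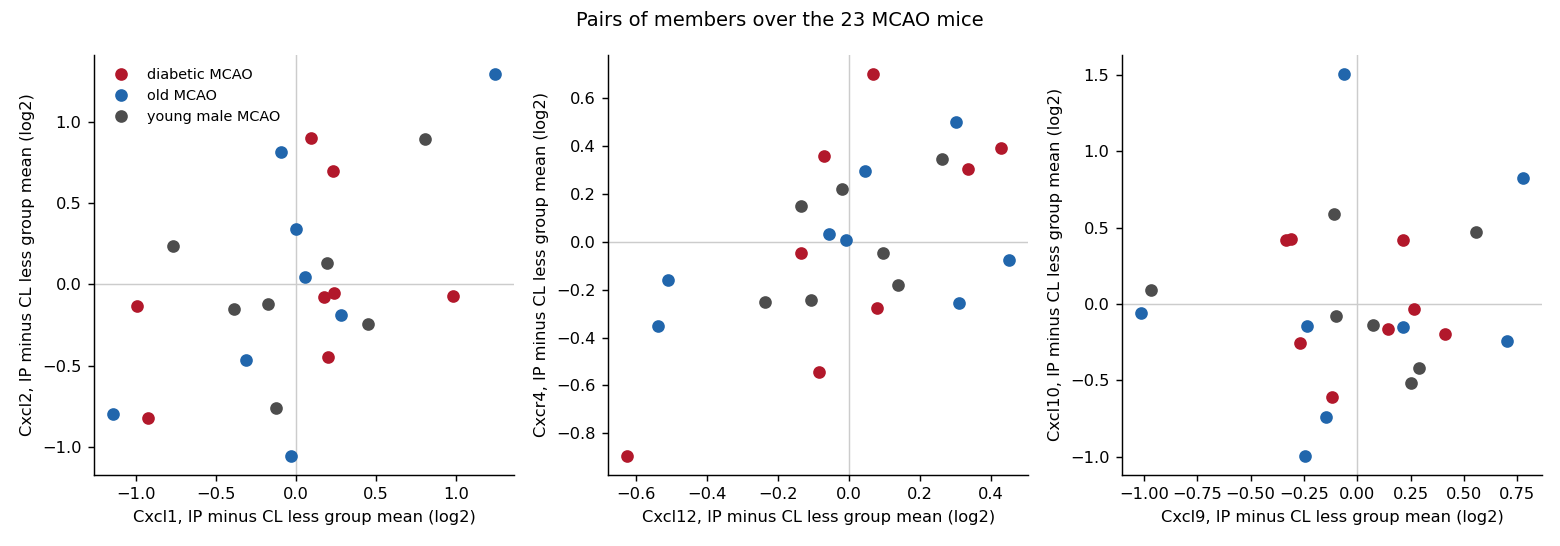
IP minus CL less the group mean (log2) of 3 pairs of members in the 23 MCAO mice, each point 1 mouse coloured by group. Cxcl1 and Cxcl2 (r = 0.52) and Cxcl12 and Cxcr4 (r = 0.57) spread along a rising line, and Cxcl9 and Cxcl10 (r = 0.09) do not. Both rising pairs have a lower r without the 2 mice farthest from the median of the first gene.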

How the data were processed

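The deposited values are log2 signals of 29129 probe sets on Clariom S Mouse arrays, which the authors made with Robust Multiarray Average, each group on its own; the labels name Affymetrix Expression Console. Per the platform annotation, 19572 probe sets carried 1 symbol, 9557 none and 0 several; the brightest probe set stood for each of 19505 genes. In the columns of diabetic and old mice, 8800 probe sets lay 3 rows late and were moved up (correlation with young male levels 0.169 before and 0.975 after in diabetic, 0.170 and 0.977 in old mice); Cxcl14 and Cxcl16 lie in that block. Array median signals were 6.16 to 6.41 in diabetic, 6.19 to 6.34 in old and 4.11 to 4.24 in young male mice. Depth does not apply to arrays, and their number limits the precision.

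IP minus CL of each mouse, paired by the mouse number in the sample titles, was fitted with limma 3.58.1 (lmFit, eBayes) in R 4.3.3: MCAO and sham mice of a group in one model, or 6 means (group by surgery) over 34 mice for means of the groups and differences between them. P-values were adjusted by Benjamini-Hochberg over all genes and called under 0.25. IP and CL arrays were each fitted with the 6 means for MCAO minus sham. Own IP and CL arrays deviated together weakly, with a median r over mice of 0.096 in diabetic, 0.122 in old and 0.141 in young male mice. An IP array went best with its own CL array in 4 of 12 diabetic, 7 of 12 old and 9 of 10 young male mice. The methods' filter on the standard deviation (75th percentile) was an alternative, since 5 of the 10 members would go untested in each group; the alternatives are given in the closing section. Fits were tested on simulated data. Correlations used 100000 permutations within groups, two-sided. Tables and figures used Python 3.11.15 with scipy 1.17.1, pandas 2.3.3, matplotlib 3.10.9 and numpy 2.4.6.

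The members and the gene lists were chosen with earlier results of these data known. Named genes are the 10 members, other ligands and receptors called in any group, at most 3 genes of each other list with the smallest p over the 3 MCAO groups, and the 3 genes most like each member called there; Cxcl3, Cxcl5, Adam10, Adam17, Aif1, Fcrls, Alas2 and Slc4a1 were added after their values were seen. The lists of markers of astrocytes, neurons, choroid plexus and meninges and red blood cells gave 2 of 9, 1 of 9, 0 of 11 and 1 of 2 genes higher and 1, 3, 1 and 0 lower in IP over the 3 MCAO groups. Over all genes, 6.11% were called higher there and 14.3% in either direction. Promoter sequences of 9 members came from RefSeq, GRCm38.p6.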

Additional observations from a re-analysis of the deposited data

Results flagged for a closer look

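The IP minus CL difference of Cxcl1 in MCAO mice differed between diabetic and young male mice by 0.83 log2 (limma, adjusted p = 0.138), which is why it is listed here. It was higher in IP in 6 of 8 diabetic and 3 of 7 young male MCAO mice. Leaving out any 1 of the 34 mice kept the call, with differences from 0.69 to 0.97. Treating IP and CL arrays as independent gave the same difference and an adjusted p of 0.252. Strain, set of experiments and disease cannot be told apart in it. Of 50 groups of 4 to 8 mice tested for a single mouse far from the rest, 0 had one.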

How the results depend on the processing

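Counts of called members out of 10 changed as follows. For IP minus CL in diabetic MCAO mice the count was 3, and it was 1 at an adjusted p under 0.05, 5 with arrays centred on their median (Cxcl10 and Cxcl16 gained) and 0 with dim genes left out. It was 2 without Cxcr2 under the filter on the standard deviation (adjusted p = 0.310) and with limma's trend and robust options (adjusted p = 0.259), and 4 with Cxcl10 when each surgery was fitted alone (adjusted p = 0.249). For the mean of the 3 groups it was 3, and it was 1 at 0.05, 0 without dim genes and 1 with the methods' filter on spread. Under that filter Cxcr4 was lost (adjusted p = 0.354), and Cxcl16 was not tested, since its spread lay below the cutoff in every group. Cxcl10 was gained with arrays centred (4, adjusted p = 0.229), Cxcr4 was lost with trend and robust (2, adjusted p = 0.265) and with all male mice kept (2, adjusted p = 0.255), and with diabetic and old mice only Cxcl16 was lost (adjusted p = 0.402) and Cxcl1 gained (3, adjusted p = 0.0766). For old MCAO mice it was 0, and 1 (Cxcl2) with the filter on the standard deviation. For diabetic minus young male it was 1, and 0 at 0.05, without dim genes and with no replicate block. For MCAO minus sham of IP minus CL over the 3 groups it was 0. It was 1 (Cxcl2) with arrays centred and with the filter on the standard deviation, and 1 (Cxcl1) with diabetic and old mice only. For MCAO minus sham in IP it was 2, and 1 with all male mice kept and 0 without dim genes, and 3, with Cxcl10 gained, for diabetic and old mice only (adjusted p = 0.219) and with trend and robust (adjusted p = 0.242). Leaving out dim genes leaves 3 members to test (Cxcl12, Cxcl14 and Cx3cl1), so its counts of 0 come from fewer members.

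Leaving out each mouse in turn gave 2 to 4 members called in diabetic MCAO mice, 2 to 5 for the mean of the 3 groups, 1 to 2 for diabetic minus young male, 0 to 2 for MCAO minus sham of IP minus CL and 2 to 3 for MCAO minus sham in IP. The count of 5 came without old MCAO mouse 8, which also gave the 2 for MCAO minus sham; without diabetic MCAO mouse 3, old MCAO mouse 4, young male MCAO mouse 6 or young male sham mouse 2 that comparison had 1. Diabetic minus young male had 2 without diabetic MCAO mouse 3 or young male MCAO mouse 2. Of 170 member differences, 9 were called and kept their sign under every alternative; 72 that were not called changed sign under some alternative. The replicate block mattered to 2 calls: without it Cxcr4 over the 3 groups (adjusted p = 0.411) and Cxcl1 in diabetic minus young male mice (adjusted p = 0.252) no longer passed.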

Other observations

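In the arrays labelled female, which were left out of all comparisons, IP minus CL of Cxcl2 as labelled ran from −1.29 to 0.51 with a median of −0.58 in 7 MCAO mice, and from −1.40 to −0.24 with a median of −1.17 in 3 sham mice. Cxcl1 ran from −0.83 to 0.51 with a median of −0.12 in the MCAO mice and from −0.98 to 0.41 with a median of −0.38 in the sham mice. Cxcl16 ran from −1.12 to −0.06 with a median of −0.48 in the MCAO mice and from −0.67 to 0.17 with a median of 0.06 in the sham mice. The hemisphere labels of these arrays are in doubt, so the signs are not read. Female MCAO mouse 1, whose IP and CL arrays shared 99.9% of their values, is not among the 7. Female sham mouse 1 is not among the 3, as its CL array had a median r of 0.025 with the others.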
